A study of Rattus norvegicus with 2 samples.

Results

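Cluster 7 was a small class of interferon-response fibroblasts, with 248 of the 24220 cells in the series. The cells were found through the cluster number that the authors deposited for each barcode, and the authors named the class Fibroblast. It held 104 of 11531 control cells (0.902%, 95% Clopper-Pearson interval 0.738 to 1.09) and 144 of 12689 LPS cells (1.13%, 0.958 to 1.33). The cells came from hearts of neonatal Sprague-Dawley rats, 1-3 days of age, pooled over males and females, and were enriched on a Percoll gradient, plated and cultured. The control cells received saline and the LPS cells 1 µg/mL lipopolysaccharide (LPS), both for 2 h. Each condition had 1 library, made with the 10X Genomics Chromium 3′ v2 kit, in which unique molecular identifiers (UMIs) count captured mRNA molecules. The labels call both libraries intrinsic cardiac adrenergic (ICA) cells, whereas the cell table has 11 clusters and places ICA cells in another one. In cluster 7, *Th*, which encodes tyrosine hydroxylase, had no UMI in either library, and *Dbh*, dopamine beta-hydroxylase, had 2 control UMIs and 1 LPS UMI.

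The control cells of cluster 7 gave 1459846 UMIs, with a median of 12785.5 per cell (3767 to 38586), and the LPS cells gave 1520112, with a median of 9681 (3811 to 23704). Gene levels are given as UMIs per 1000000 UMIs (CPM), after adding up all cells of a cluster in a library. Neither condition was replicated, so differences between the libraries could not be tested. All intervals are at 95% and cover counting error only, and any difference in animals, culture or library handling cannot be told apart from LPS. A gene was compared between libraries when it had at least 50 UMIs over both and was seen in at least 10% of the cells of either. Between clusters 7 and 0 of a library, cluster 7 alone had to meet this minimum. The term "past 2-fold" describes the size of a ratio, not a test. The median share of mitochondrial UMIs in cluster 7 was 3.30% in control and 2.83% in LPS cells. Of the barcodes, 194 occurred in both libraries, and none of these was in cluster 7 of both.

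Interferons are secreted proteins with which cells warn their neighbours of infection. Type I interferons bind the receptor chains Ifnar1 and Ifnar2, the kinases Jak1 and Tyk2 phosphorylate STAT proteins, and STAT complexes with Irf9 enter the nucleus and switch on interferon-stimulated genes, many of which block viral replication. LPS is sensed by Tlr4, which has an arm that activates NF-κB and another that can induce interferon-β. Cardiac fibroblasts produce the collagen matrix of the heart and are also a source of chemokines in inflammation.

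The fibroblast label held in both libraries. Fibroblast markers summed to 12080 CPM in control and 11787 CPM in LPS cells of cluster 7, which was 1.01 times (0.990 to 1.02) and 1.08 times (1.06 to 1.09) the level in cluster 0, the main fibroblast cluster with 6600 control and 7030 LPS cells. *Col1a1*, a chain of type I collagen, was at 4383 CPM in control and 3946 CPM in LPS cells, and *Dcn*, the matrix proteoglycan decorin, at 3023 and 3440 CPM. None of the 9 fibroblast markers compared in each library lay past 2-fold between clusters 7 and 0, where 1.22% of all genes compared in control and 2.39% in LPS were past 2-fold higher and 0% lower.

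Among markers of other cell types, most lists were low in cluster 7, while the mural list was not, through its contractile genes. The 10 macrophage markers summed to 33.6 CPM in control and 21.7 CPM in LPS cells of cluster 7, against 2633 and 3190 CPM in the macrophages of cluster 6. *Cd14* was the most abundant of them, at 16.4 and 11.2 CPM, while *Ptprc* and *Mrc1* had no UMI in either library. The lymphocyte and dendritic cell markers had no UMI in control cells. The part of free RNA or mixed droplets in these levels was not tested. The cardiomyocyte markers were 0.967 times (0.874 to 1.07) and 1.01 times (0.912 to 1.13) their level in cluster 0, with *Tnnt2* highest at 87.0 and 83.5 CPM and *Myl2* and *Ryr2* at 0. The blood cell markers summed to 18.5 and 26.3 CPM, the mesothelial markers to 30.8 and 21.7 CPM, and the glial and neural markers to 11.6 and 1.32 CPM. The mural cell markers summed to 623 CPM in control and 883 CPM in LPS cells, which was 0.826 times (0.773 to 0.882) and 1.18 times (1.12 to 1.25) their level in cluster 0. Their LPS ratio was 1.42 (1.30 to 1.55) in cluster 7 and 0.991 (0.980 to 1.002) in cluster 0. *Acta2*, smooth muscle actin, had the most UMIs of them, at 308 and 516 CPM. Without the contractile genes *Acta2*, *Tagln* and *Cnn1*, the mural list was 0.951 times (0.715 to 1.24) and 0.789 times (0.557 to 1.09) its level in cluster 0.

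The endothelial markers stood apart in 2 control cells. Over all control cells they summed to 164 CPM, 1.68 times (1.47 to 1.91) the level in cluster 0, with *Egfl7* highest at 45.2 CPM and no marker at 0. In LPS cells they summed to 68.4 CPM. A single control cell held 78 endothelial-marker UMIs and a second held 17, whereas no other control cell held more than 5 and no LPS cell more than 6. The first of them had 38586 UMIs in all, the most in the cluster, including 17 of *Cdh5* (VE-cadherin) and 122 of *Fabp4* and only 18 of *Col3a1* and 14 of *Dcn*. It alone gave 155 of the 774 *Isg15* UMIs and 32 of the 70 *Mx1* UMIs of the control cells. Without these cells the endothelial list was 1.04 times its level in cluster 0, and values are given below with and without them where they bear on a result.

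All 6 genes that mark the cluster were far higher in cluster 7 than in cluster 0, in both libraries, and within cluster 7 their levels were higher with LPS than with saline. These genes set the cluster apart when the cells were clustered, so their levels are a description and not a finding. *Mx1* (ENSRNOG00000001959), a GTPase that blocks viral ribonucleoproteins, was at 48.0 CPM (37.4 to 60.6) in control and 180 CPM (160 to 203) in LPS cells of cluster 7, and at 0.519 and 2.71 CPM in cluster 0. *Ifit3* (ENSRNOG00000022839), of a family that recognises foreign RNA, was at 103 CPM (87.6 to 121) and 422 CPM (390 to 456), against 1.43 and 15.1 CPM in cluster 0. Both genes were thus lower in the LPS cells of cluster 0 than in the untreated cells of cluster 7.

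*Isg15* (ENSRNOG00000021802), a ubiquitin-like protein that is joined to other proteins during the response, was at 530 CPM (493 to 569) in control and 1692 CPM (1627 to 1759) in LPS cells of cluster 7, and at 18.3 and 122 CPM in cluster 0. *Usp18* (ENSRNOG00000037198), the protease that removes Isg15 and dampens receptor signalling, was at 41.8 CPM (32.0 to 53.7) and 182 CPM (161 to 205), against 2.24 and 14.5 CPM. *Cmpk2* (ENSRNOG00000007690), a mitochondrial nucleotide kinase, was at 30.1 CPM (21.9 to 40.5) and 124 CPM (107 to 143), against 1.47 and 5.19 CPM. Without the endothelial-marker-rich cells the control levels of *Mx1* and *Cmpk2* were 26.8 and 19.1 CPM. The chemokine gene *Cxcl10* (ENSRNOG00000022256), whose product draws activated T cells, had the widest span of the 6, from 127 CPM (110 to 147) in control to 1858 CPM (1791 to 1928) in LPS cells, against 2.44 and 63.6 CPM in cluster 0. The plot of gene levels shows these values beside those of NF-κB targets and matrix genes.

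**Figure D1:**
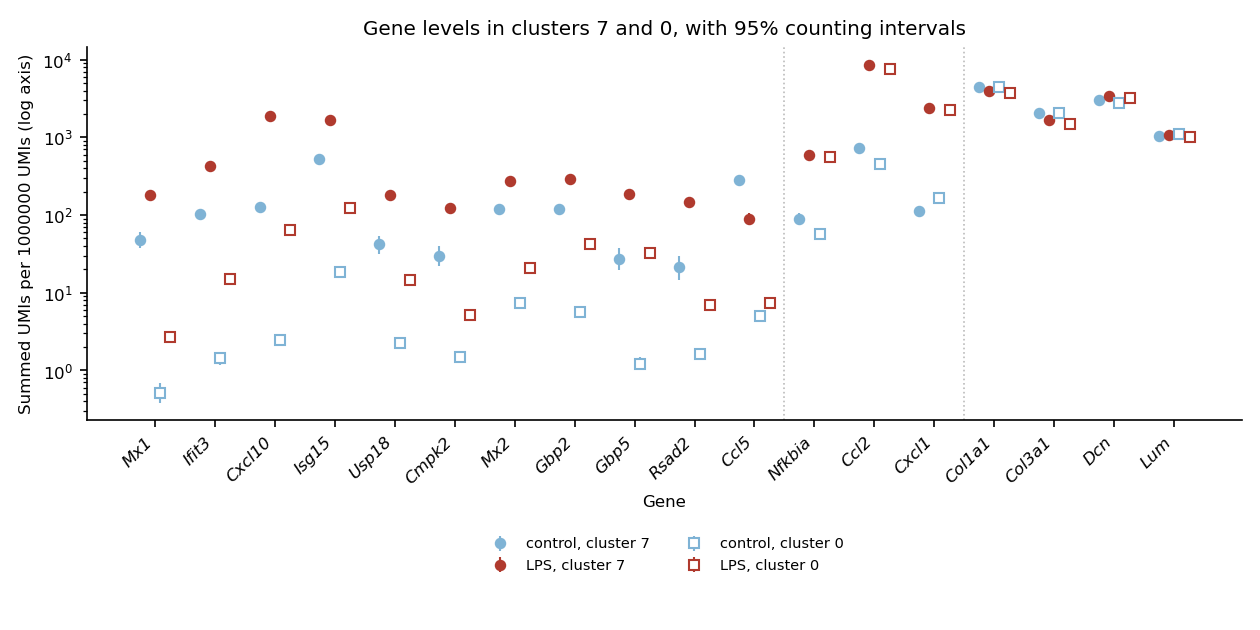
Summed UMIs per 1000000 UMIs (log axis) of 18 genes in cluster 7 (filled circles) and cluster 0 (open squares), with control in blue and LPS in red. Bars are exact Poisson intervals for counting error and can be smaller than the symbols. The interferon-stimulated genes on the left separate the clusters, for example *Mx1* at 48.0 and 180 CPM against 0.519 and 2.71 CPM, while *Nfkbia*, *Ccl2* and *Cxcl1* in the middle separate mainly the libraries, and the matrix genes on the right lie close together in all 4 classes.

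Promoter sequences of the genes are shown because both families of induced genes carry well-known binding motifs. Factors of the STAT and IRF families bind elements with GAAA repeated after 2 bases (GAAA NN GAAA), and NF-κB binds elements of GGG and TTTCC with 2 bases between them (GGG NN TTTCC). RefSeq promoters of the rat build GRCr8 were found for 4 of the 6 markers, and the 250 bases before each gene's start were searched on both strands. GAAA NN GAAA occurred in 1140 of 33469 such windows (3.41%) and GGG NN TTTCC in 435 (1.30%). These shares count every window, which can include several of a gene, whereas the list counts below take 1 window per gene. GAAA NN GAAA was present in *Ifit3* and *Cxcl10* and in neither *Mx1* nor *Cmpk2*. Of the 20 antiviral effector genes with a promoter in the table, 13 had GAAA NN GAAA and 0 had GGG NN TTTCC, and of 14 NF-κB response genes 1 and 5 did. Of 13 collagen and matrix genes none had either. Of 29 other interferon-stimulated genes, 14 had GAAA NN GAAA and 0 had GGG NN TTTCC. Of 11 NF-κB-linked cytokines and chemokines, 0 and 5 did, and of 3 interferon-linked chemokines 1 and 0. The remaining lists varied. None of 5 ISG15 conjugation genes had either, 7 of 10 guanylate-binding proteins and related GTPases had GAAA NN GAAA and 2 had GGG NN TTTCC, and of 16 antigen presentation genes 8 and 3 did. A match describes letters in this window only, and binding was not measured. The windows of *Ifit3* (chr1:241527076-241527325, plus strand), *Cxcl10* (chr14:15988816-15989065, plus strand), *Nfkbia* (chr6:78597073-78597322, minus strand) and *Gbp5* (chr2:233910749-233910998, plus strand) follow, 5′ to 3′ on the gene's strand, with each match in capitals. In *Ifit3* it lies 44 to 35 bases before the start and in *Cxcl10* 243 to 234, both matches to GAAA NN GAAA. In *Nfkbia* the match is to GGG NN TTTCC, 31 to 22 bases before the start. *Gbp5*, chosen after its values were seen because its window holds both, has GGG NN TTTCC at 94 to 85 and GAAA NN GAAA at 56 to 47, with no overlap.
Ifit3: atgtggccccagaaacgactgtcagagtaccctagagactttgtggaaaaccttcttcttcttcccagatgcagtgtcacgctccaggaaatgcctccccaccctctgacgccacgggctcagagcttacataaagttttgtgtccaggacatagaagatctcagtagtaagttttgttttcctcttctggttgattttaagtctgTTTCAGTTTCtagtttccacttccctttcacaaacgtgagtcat
Cxcl10: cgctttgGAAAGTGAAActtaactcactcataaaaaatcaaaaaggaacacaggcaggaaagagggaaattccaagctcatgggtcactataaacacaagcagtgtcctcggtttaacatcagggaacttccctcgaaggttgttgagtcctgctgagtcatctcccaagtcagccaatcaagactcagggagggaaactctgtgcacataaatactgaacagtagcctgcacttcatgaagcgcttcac
Nfkbia: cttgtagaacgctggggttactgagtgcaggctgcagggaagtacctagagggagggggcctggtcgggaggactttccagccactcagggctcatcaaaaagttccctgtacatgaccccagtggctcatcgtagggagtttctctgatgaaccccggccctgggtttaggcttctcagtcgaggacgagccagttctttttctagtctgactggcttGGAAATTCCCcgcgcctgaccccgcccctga
Gbp5: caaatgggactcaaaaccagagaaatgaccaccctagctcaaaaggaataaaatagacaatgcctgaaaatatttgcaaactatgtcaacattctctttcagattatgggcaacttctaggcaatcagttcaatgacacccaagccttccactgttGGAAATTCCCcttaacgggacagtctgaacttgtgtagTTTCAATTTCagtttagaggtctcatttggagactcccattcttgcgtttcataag

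The marker genes were spread over the LPS cells of cluster 7 and more patchy over the control cells. Because cells differed in depth, 3000 UMIs were drawn at random from each, and all cells of cluster 7 had that many. *Isg15* was then detected in 53.8% (43.8 to 63.7) of control cells and in 96.5% (92.1 to 98.9) of LPS cells, and *Cxcl10* in 19.2% (12.2 to 28.1) and 88.9% (82.6 to 93.5). *Mx1* was seen in 6.73% (2.75 to 13.4) and 31.2% (23.8 to 39.5). Without thinning the shares were 83.7% and 100% for *Isg15*, 33.7% and 97.9% for *Cxcl10*, and 18.3% and 70.1% for *Mx1*. In cluster 3, which holds the cardiomyocytes and shares any free RNA of the suspension, the thinned shares of *Isg15* were 5.14% in control and 17.0% in LPS cells, those of *Cxcl10* 2.39% and 7.56%, and those of *Mx1* 0.120% and 0.432%. Cells of cluster 3 had medians of 7526 and 5269 UMIs.

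At least 3 of the 6 markers were seen in 15 of the 104 control cells (14.4%, 8.30 to 22.7) and in 119 of the 144 LPS cells (82.6%, 75.4 to 88.4) after thinning, and in 38.5% and 97.2% without it. In cluster 0 the thinned shares were 0 of 6600 control cells and 1.99% (1.68 to 2.35) of 7024 LPS cells. After thinning, 33 control cells of cluster 7 had none of the 6 markers and 47 had 1, whereas every LPS cell had at least 1. Without thinning, 4 control cells still had none of them.

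**Figure D2:**
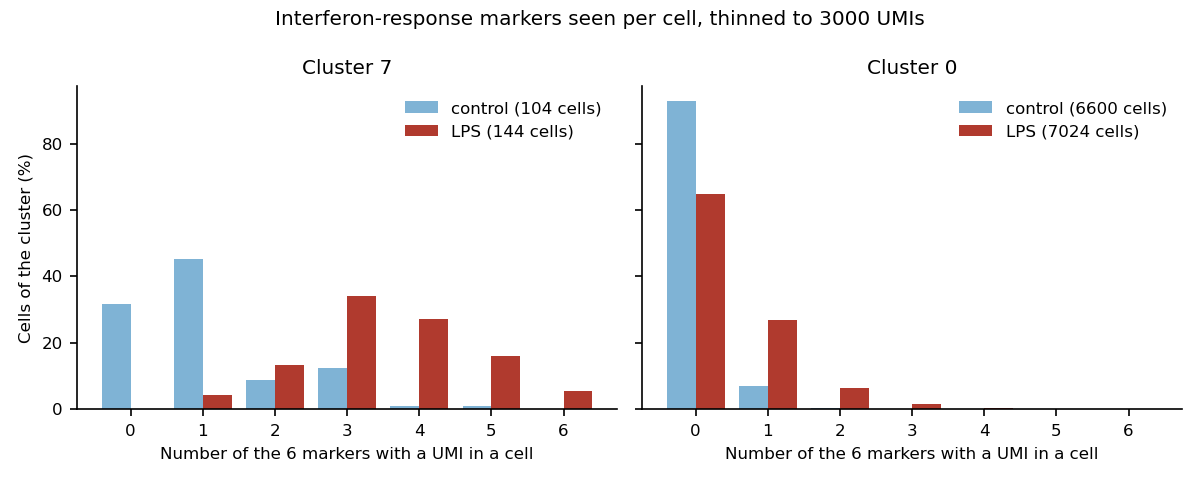
Share of cells (%) by the number of the 6 markers with a UMI, after thinning each cell to 3000 UMIs, in cluster 7 (left) and cluster 0 (right), with control in blue and LPS in red. In cluster 7 the control cells peak at 1 marker (47 cells) and the LPS cells at 3 (49 cells), while most cells of cluster 0 have none.

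The spread over cells was also counted over more genes. The lists of antiviral effectors, ISG15 conjugation, other interferon-stimulated genes, guanylate-binding proteins and interferon-linked chemokines hold 71 genes beside the broadly expressed *Ifitm1*, *Ifitm2*, *Ifitm3*, *Ifi27* and *Ifi27l2b*. Of 3000 UMIs, these 71 genes took a median of 6.5 in control cells (lowest 1, highest 43) and 23 in LPS cells (lowest 8, highest 112) of cluster 7, and medians of 2 and 3 in cluster 0. The clusters overlapped. In control, 118 cells of cluster 0 (1.79%) were at or above the median of cluster 7, and in LPS 20 cells (0.285%). Those 118 control cells of cluster 0 outnumbered the whole of cluster 7 in that library.

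**Figure D3:**
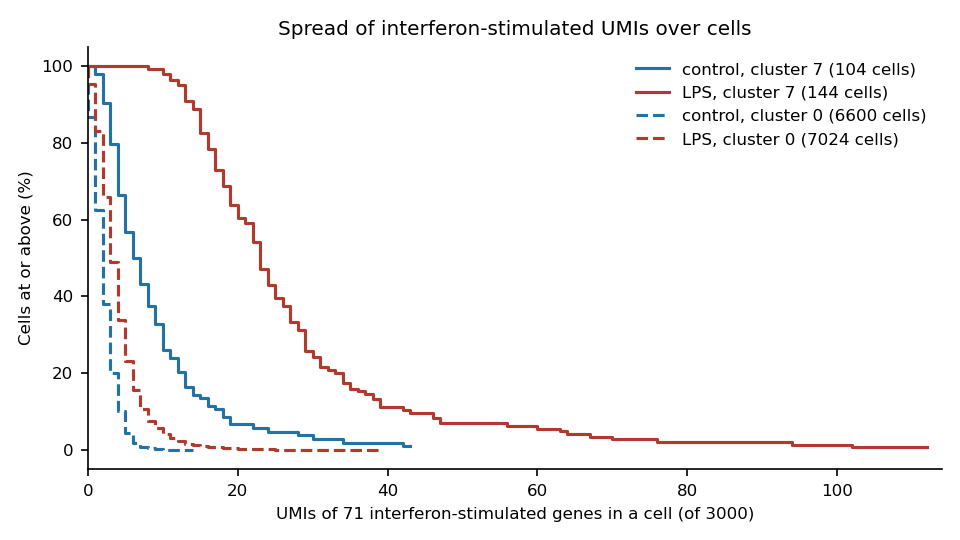
Share of cells (%) with at least the number of UMIs on the horizontal axis, for 71 interferon-stimulated genes, after thinning each cell to 3000 UMIs. Solid lines are cluster 7 and dashed lines cluster 0, with control in blue and LPS in red. The LPS cells of cluster 7 (median 23) lie far to the right of the control cells (median 6.5), which overlap the dashed curves of cluster 0 (medians 2 and 3).

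Most genes that were past 2-fold higher in cluster 7 than in cluster 0 were on the interferon lists, but not all. In control, 37 of 3042 genes (1.22%) were past 2-fold higher in cluster 7 and 0 (0%) lower. In LPS, 73 of 3060 (2.39%) were higher and 0 (0%) lower. The minimum was applied here to cluster 7 alone, which leaves out genes that are low in it, so the balance of higher and lower genes is not a result. With the minimum met in either cluster, an alternative added after seeing the data, 1 of 3131 genes was lower in control (*Rhox5*, at 16.4 against 37.6 CPM) and 0 of 3190 in LPS. Of the higher genes, 25 of 37 in control and 46 of 73 in LPS were on one of the 10 lists of interferon-related genes, which held 42 of the 3042 and 62 of the 3060 genes compared. Without the endothelial-marker-rich cells, 22 of 2940 genes (0.748%) were higher in control, 17 of them on these lists. Since the clusters were made from these counts, the genes are a description of the cluster. The highest 15 in control were, in order, *Mx1*, *Ifit3*, *Ccl5*, *Cxcl10*, *Isg15*, *Gbp2*, *Usp18*, *Mx2*, *Oasl*, *Rtp4*, *Oasl2*, *RT1-T24-3*, *Irf7*, *Dusp2* and *Oas1a*, from a log2 ratio of 6.52 for *Mx1* to 2.89 for *Oas1a*. Part of this order rested on the endothelial-marker-rich cells. Without them *Mx1*, *Usp18*, *Irf7* and *Dusp2* had fewer than the 50 UMIs required and were no longer among the genes compared. *Mx1* was then at 5.69, below *Ccl5* (5.87) and *Ifit3* (5.86), and *Dusp2*, a phosphatase of MAP kinases, was at 0.78 and no longer past 2-fold. In LPS they were *Mx1*, *Cxcl10*, *Ifit3*, *Cmpk2*, *Rsad2*, *Cxcl11*, *RGD1309362*, *Isg15*, *Mx2*, *Isg20*, *Usp18*, *Igtp*, *Ccl5*, *Ifi47* and *LOC100910979*, from 6.05 to 3.40.

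Many antiviral effectors were among these genes. Of those compared, 8 of 12 in control and 12 of 16 in LPS were past 2-fold higher in cluster 7 than in cluster 0, beside 1.22% and 2.39% of all genes. *Mx2*, a relative of *Mx1*, was at 121 CPM in control and 275 CPM in LPS cells, against 7.37 and 21.0 CPM in cluster 0. *Rsad2*, which encodes viperin, an enzyme that makes a chain-terminating nucleotide, was at 21.2 and 147 CPM against 1.65 and 6.86 CPM, and its control level was 11.3 CPM without the endothelial-marker-rich cells. *Oasl2* and *Oas1a*, of the family of sensors of double-stranded RNA, were at 85.6 and 59.6 CPM in control and 247 and 153 CPM in LPS cells, against 8.97 and 8.06 CPM and 37.2 and 18.0 CPM in cluster 0. The membrane proteins of the *Ifitm* family, which hinder viral entry, lay closer to cluster 0, with *Ifitm3* at 2210 and 3514 CPM against 1680 and 2331 CPM. The whole antiviral list summed to 1.28 times (1.26 to 1.31) its level in cluster 0 in control and 1.63 times (1.60 to 1.65) in LPS. Leaving out *Ifitm1*, *Ifitm2* and *Ifitm3*, which was chosen after seeing the data, the list was 4.67 times (4.398 to 4.95) its level in cluster 0 in control, 3.59 times without the endothelial-marker-rich cells, and 7.63 times (7.35 to 7.91) in LPS.

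The guanylate-binding proteins and immunity-related GTPases, which attack the compartments of intracellular microbes, were 12.6 times (11.001 to 14.3) their level in cluster 0 in control and 6.29 times (5.90 to 6.71) in LPS. *Gbp2* was at 121 and 289 CPM against 5.71 and 42.5 CPM, and *Gbp5* at 27.4 and 187 CPM against 1.23 and 32.6 CPM. The control level of *Gbp5* was 16.2 CPM without the endothelial-marker-rich cells. The control value of the list was 8.29 times without the endothelial-marker-rich cells, of which the larger gave 55 of the 177 *Gbp2* UMIs. Antigen presentation genes differed less, at 1.61 times (1.57 to 1.66) in control and 1.74 times (1.69 to 1.78) in LPS. Without the endothelial-marker-rich cells the control value of these genes was 1.47 times (1.42 to 1.51). Of these, 4 of 11 in control and 7 of 13 in LPS were past 2-fold higher, beside 1.22% and 2.39% of all genes, including *Psmb9*, a subunit of the immunoproteasome, at 89.7 and 180 CPM against 32.1 and 57.6 CPM. *B2m*, the light chain of MHC class I, was at 1291 and 1394 CPM against 807 and 909 CPM. *RT1-T24-3*, a rat MHC class I gene that can share reads with its relatives, was at 156 and 137 CPM against 18.3 and 29.3 CPM, and the larger endothelial-marker-rich cell gave 71 of its 228 control UMIs.

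*Ifi27l2b*, of the ISG12 family, had the most UMIs among the interferon-stimulated genes listed, at 5088 CPM in control and 4190 CPM in LPS cells of cluster 7 against 1679 and 1972 CPM in cluster 0. Its level in cluster 7 was lower with LPS, at a ratio of 0.824 (0.796 to 0.852). *Bst2*, or tetherin, which holds budding virus at the cell surface, had a ratio of 0.713 (0.476 to 1.06), an interval that includes 1.

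**Figure D4:**
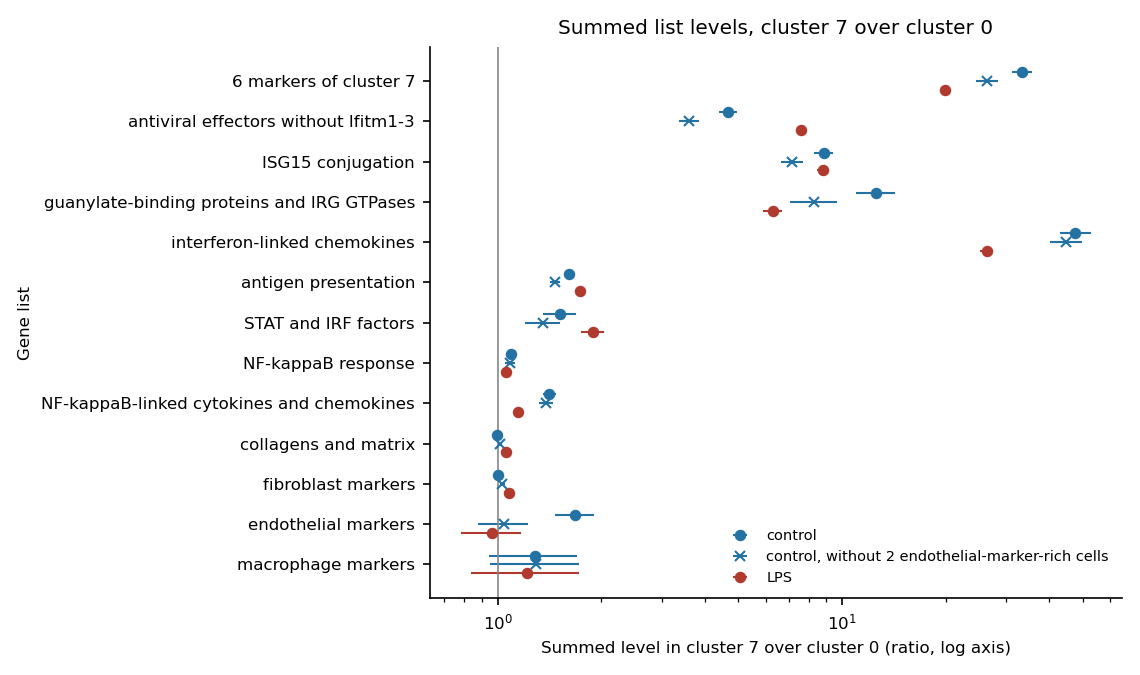
Summed level of 13 gene lists in cluster 7 over cluster 0 (ratio, log axis), in control (blue circles), in control without 2 endothelial-marker-rich cells (blue crosses) and in LPS (red circles), with exact conditional intervals. The interferon lists lie right of 1, up to 47.5 for the interferon-linked chemokines in control, and the NF-κB response, matrix and fibroblast lists lie between 0.997 and 1.09. The NF-κB-linked cytokines and chemokines lie at 1.41 in control and 1.15 in LPS.

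Genes low in cluster 7 were mostly left out by the minimum, so the lowest ratios describe only genes that passed in cluster 7. The 10 lowest of these genes in control reached from *Wdr61* (log2 ratio -0.47) to *Zg16b* (-0.71) and included *Plod2*, a collagen lysyl hydroxylase, at 45.9 CPM against 74.2 CPM, and *Cxcl1*, at 113 CPM against 164 CPM. The others were *Oat*, *Vegfd*, *Htra2*, *Car3*, *Plekha5* and *Mrpl3*. In LPS the 10 lowest reached from *Slc35b2* (-0.50) to *Pvalb* (-0.71), which encodes the calcium buffer parvalbumin and was at 153 CPM against 250.5 CPM. They included *Igf1*, the insulin-like growth factor, at 55.9 against 82.6 CPM, *Thbs2*, a matricellular thrombospondin, at 42.1 against 61.9 CPM, and *Nqo1*, a quinone reductase, at 129 against 186 CPM. The others were *Tpm4*, *Cpxm1*, *Nat9*, *Slc9a3r2* and *Il1rl1*.

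Genes of the signalling chain itself came next. Of 11 listed interferon genes, including *Ifnb1*, 5 *Ifna* genes and *Ifng*, none had a UMI in cluster 7, and at this depth levels up to 2.06 CPM (control) and 1.97 CPM (LPS) would be compatible with that. In the whole libraries, *Ifne* had 2 UMIs in control and the other genes none. The receptor chain *Ifnar1* was at 17.8 and 19.7 CPM, against 17.1 and 20.8 CPM in cluster 0. *Ifnar2* was seen with 7 control and 12 LPS UMIs. *Stat2* was at 43.2 CPM in control and 96.0 CPM in LPS cells, against 17.3 and 30.4 CPM, and *Irf9*, its partner, at 12.3 and 31.6 CPM against 6.44 and 9.46 CPM. *Irf9* and both receptor chains were below the minimum for comparing the clusters in each library. Of the STAT and IRF factors compared, 2 of 3 in control and 2 of 4 in LPS were past 2-fold higher in cluster 7. Over all genes these shares were 1.22% and 2.39%. *Stat3* had the most UMIs of these factors, at 60.3 and 118 CPM. *Irf7*, which amplifies the type I response, was at 48.0 and 67.8 CPM against 6.16 and 11.9 CPM. Its control level was 33.2 CPM without the endothelial-marker-rich cells.

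The second comparison asked how the cells of cluster 7 differed between LPS and saline. Of 4804 genes compared, 219 (4.56%) were past 2-fold higher and 162 (3.37%) past 2-fold lower in the LPS library, with a median log2 ratio of -0.02 over all genes. The balance turned with the settings, to 326 higher and 465 lower with at least 20 UMIs per gene and to 498 higher and 558 lower at 1.5-fold. Without the endothelial-marker-rich cells the counts were 233 (4.91%) and 144 (3.03%) of 4747. In cluster 0, 220 of 6809 genes (3.23%) were higher and 220 (3.23%) lower. Since cells were assigned to cluster 7 by these counts, the ratios of genes that set the cluster apart also follow which cells of each library were placed in it.

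Among interferon-stimulated genes, 11 of the 17 antiviral effectors compared were past 2-fold higher with LPS and none lower, with a median log2 ratio of 1.31, beside 4.56% higher and 3.37% lower over all genes. In cluster 0, 10 of the same 17 were higher, with a median of 1.38, beside 3.23% of all genes. The median in cluster 7 was 1.77 without the endothelial-marker-rich cells, so that which cluster had the larger median turned with these 2 cells. Of 17 other interferon-stimulated genes, 9 were higher, with a median of 1.01 (6 and 0.51 in cluster 0). All 5 guanylate-binding proteins and related GTPases were higher, with a median of 2.74 (5 and 2.81 in cluster 0), which was 3.29 without those cells and so turned as well. Also higher were 3 of 4 ISG15 conjugation genes, with a median of 1.51 (2 and 1.74 in cluster 0). Of 15 antigen presentation genes, 5 were higher, with a median of 0.64 (1 and 0.23 in cluster 0). The summed antiviral list was 1.71 times (1.66 to 1.76) as high in LPS as in control cells of cluster 7 and 1.35 times (1.34 to 1.36) in cluster 0, and without the 3 *Ifitm* genes the ratios were 2.74 (2.56 to 2.93) and 1.68 (1.64 to 1.71). The summed list of other interferon-stimulated genes, in which *Ifi27l2b* has the most UMIs, had ratios of 1.01 (0.985 to 1.04) and 1.20 (1.19 to 1.20). The guanylate-binding proteins and related GTPases had summed ratios of 3.595 (3.15 to 4.12) and 7.17 (6.77 to 7.596), and 5.45 in cluster 7 without the endothelial-marker-rich cells.

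The ratios of the 6 markers were larger once the endothelial-marker-rich control cells were left out. *Mx1* was 3.76 times (2.88 to 4.96) as high in LPS as in control cells, and 6.72 times (4.77 to 9.70) without the endothelial-marker-rich cells. For *Isg15* the ratios were 3.19 (2.94 to 3.46) and 3.99 (3.65 to 4.37), for *Usp18* 4.36 (3.29 to 5.85) and 6.45 (4.62 to 9.23), and for *Cmpk2* 4.10 (2.94 to 5.84) and 6.49 (4.32 to 10.1). *Ifit3* moved from 4.08 (3.41 to 4.90) to 5.10 (4.19 to 6.27), and *Cxcl10* from 14.6 (12.6 to 17.0) to 16.2 (13.9 to 19.2).

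To set the LPS ratio of cluster 7 against that of cluster 0, their quotient was taken for 29 genes, of which those beyond the 6 markers were chosen after their values were seen. It was below 1 for *Isg15* (0.478, 0.434 to 0.527), *Ifit3* (0.384, 0.295 to 0.499), *Cxcl10* (0.560, 0.456 to 0.688), *Gbp2* (0.320, 0.262 to 0.393) and *Gbp5* (0.257, 0.173 to 0.386). Without the endothelial-marker-rich cells these were 0.597, 0.481, 0.624, 0.466 and 0.433, each with an interval below 1. For *Usp18* the quotient was 0.674 (0.488 to 0.940) with all cells and 0.997 (0.687 to 1.47) without those 2, and for *Mx1* 0.720 (0.465 to 1.11) and 1.29 (0.788 to 2.11). *Cmpk2*, the last of the 6 markers, had a quotient above 1, at 1.16 (0.782 to 1.75) with all cells and 1.83 (1.16 to 2.99) without those 2.

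Other genes had a larger LPS ratio in cluster 7 than in cluster 0. *Ifit2* was 6.17 times (4.45 to 8.76) as high in LPS as in control cells, from 28.8 to 178 CPM, a quotient of 2.37 (1.68 to 3.41). Without the endothelial-marker-rich cells the ratio of *Ifit2* was 10.1 and its quotient 3.87 (2.53 to 6.15). *Tap1*, which carries peptides to MHC class I, was at 21.9 and 141 CPM, with a ratio of 6.45 (4.44 to 9.67) and a quotient of 1.91 (1.30 to 2.88), or 9.54 and 2.82 (1.78 to 4.68) without those cells. *Rsad2* had a ratio of 6.94 (4.75 to 10.5) and a quotient of 1.66 (1.08 to 2.62), or 13.0 and 3.13 (1.81 to 5.75) without them. *Socs1*, a feedback inhibitor of JAK kinases below the minimum for the comparison, had 2 control and 36 LPS UMIs, a ratio of 17.3 (4.45 to 148) against 1.78 in cluster 0.

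Nearly all NF-κB genes compared were higher with LPS in cluster 7. Of 12 NF-κB response genes compared, 11 were past 2-fold higher with LPS, as in cluster 0, and of 9 NF-κB-linked cytokines and chemokines all 9 were, as in cluster 0. Over all genes, 4.56% were higher in cluster 7 and 3.23% in cluster 0. *Nfkbia*, the inhibitor that holds NF-κB in the cytoplasm, was at 89.1 CPM in control and 588 CPM in LPS cells, a ratio of 6.60 (5.49 to 8.001), and at 57.4 and 562 CPM in cluster 0. The quotient of its ratios in clusters 7 and 0 was 0.674 (0.559 to 0.819), and 0.868 (0.702 to 1.08) without the endothelial-marker-rich cells. The monocyte chemokine *Ccl2* was at 732 and 8648 CPM, a ratio of 11.8 (11.1 to 12.6), against 448 and 7567 CPM in cluster 0, and the quotient of the ratios was 0.700 (0.657 to 0.746). The neutrophil chemokine *Cxcl1* was at 113 and 2399 CPM, a ratio of 21.2 (18.2 to 24.96), against 164 and 2238 CPM in cluster 0, with a quotient of 1.55 (1.33 to 1.83). Summed, the response list was 2.19 times (2.11 to 2.28) as high in LPS as in control cells, and 2.26 times (2.25 to 2.27) in cluster 0. *Sod2*, mitochondrial superoxide dismutase, dominated that sum at 2319 and 3753 CPM. Without it, a choice made after seeing the data, the list was 6.81 times (6.15 to 7.56) as high in LPS as in control cells of cluster 7 and 7.67 times (7.56 to 7.79) in cluster 0.

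The 10 highest LPS ratios in cluster 7 belonged to *Ccl3*, *Vcam1*, *Ch25h*, *Ccl4*, *Ccl20*, *Cxcl2*, *Cxcl1*, *Birc3*, *Cxcl3* and *Cx3cl1*, most of them chemokines. *Vcam1*, which binds leukocytes to cells, was at 2.74 CPM in control and 198 CPM in LPS cells, a ratio of 72.3 (27.9 to 267) from 4 and 301 UMIs. In cluster 0 it was at 6.91 and 102 CPM, and the quotient of the ratios was 4.89 (1.88 to 18.1). *Ch25h*, which makes the antiviral sterol 25-hydroxycholesterol, had 1 UMI in control and 64 in LPS cells, a ratio of 61.5 (10.6 to 2465). The ratio of *Ccl3* was 103 (18.1 to 4096), from 1 and 107 UMIs. *Il1b*, encoding interleukin-1β, had no UMI in control and 46 in LPS cells (30.3 CPM, against a limit of 2.06 CPM in control). With LPS, the NF-κB-linked cytokines and chemokines summed to 74851 CPM in the macrophages of cluster 6. They were at 4238 CPM in cluster 3 and 16557 CPM in cluster 7. The part of free RNA or mixed droplets in the *Ccl3* and *Il1b* levels was not tested. *Jak2*, a kinase of the interferon-γ receptor, was at 26.0 and 217 CPM, a ratio of 8.34 (5.95 to 12.0), and *Ifngr1* and *Ifngr2*, the chains of that receptor, had ratios of 2.10 (1.57 to 2.82) and 2.69 (1.83 to 4.06).

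**Figure D5:**
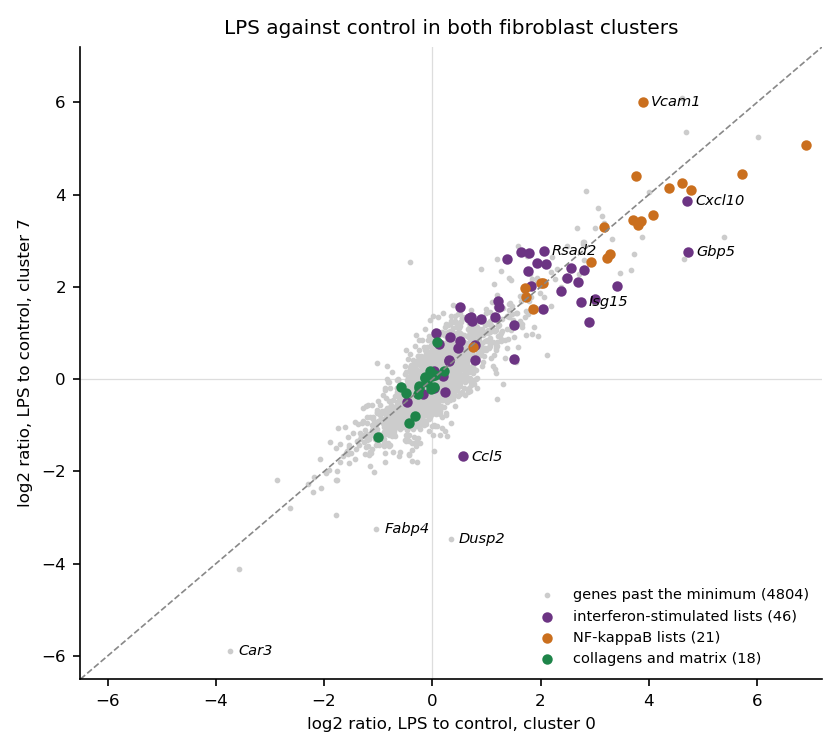
log2 ratio of LPS to control (0.5 UMI added to each sum) in cluster 7 (vertical) against cluster 0 (horizontal) for 4804 genes, with 46 interferon-stimulated genes in purple, 21 NF-κB genes in orange and 18 matrix genes in green. The dashed line marks equal ratios. *Ccl5* and *Dusp2* lie on opposite sides of 0 in the 2 clusters, and *Gbp5* and *Isg15* lie below the line.

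*Ccl5* (ENSRNOG00000010906), a chemokine for T cells and monocytes, was lower with LPS in cluster 7. It was at 284 CPM (258 to 313) in control and 88.8 CPM (74.5 to 105) in LPS cells of cluster 7, a ratio of 0.312 (0.255 to 0.3803), whereas in cluster 0 it was at 5.01 and 7.40 CPM, a ratio of 1.48. The quotient was 0.211 (0.166 to 0.268), and 0.205 without the endothelial-marker-rich cells, which held no *Ccl5* UMI. The control UMIs lay in 26 of 104 cells, 415 in all with 92 in the highest cell. The LPS UMIs lay in 17 of 144 cells, 135 in all with 21 in the highest. The 26 control cells with *Ccl5* had *Dcn* at 3932 CPM and no UMI of *Ptprc* or *Nkg7*. Their interferon-stimulated genes did not all differ one way from those of the 76 control cells without *Ccl5* that were not endothelial-marker-rich. *Mx1* was at 19.8 against 29.7 CPM and *Isg15* at 346 against 456 CPM, whereas *Ifit3* was at 151 against 55.4 CPM and *Gbp2* at 146 against 58.3 CPM. With the endothelial-marker-rich cells, the 78 control cells without *Ccl5* had *Mx1* at 58.8, *Isg15* at 601, *Ifit3* at 85.3 and *Gbp2* at 112 CPM. In LPS, cells with *Ccl5* had *Mx1* at 268 against 166 CPM, *Cxcl10* at 2445 against 1761 CPM and *Gbp2* at 461 against 260 CPM in the other cells. In the same cells *Isg15* was at 1744 against 1683 CPM, *Cmpk2* at 115 against 125 CPM, *Mx2* at 231 against 282 CPM and *RT1-T24-3* at 87.6 against 145 CPM.

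The 10 lowest LPS ratios belonged to *Car3*, *Lypd1*, *Dusp2*, *Fabp4*, *Fos*, *Lrrc17*, *Bambi*, *Wisp2*, *Cpz* and *Rnf144a*. *Fabp4* and *Dusp2* rested on 1 control cell, the larger endothelial-marker-rich one. It held 122 of 195 *Fabp4* UMIs and 60 of 79 *Dusp2* UMIs, and without both of these cells their ratios moved from 0.103 to 0.425 and from 0.0851 to 0.384. *Car3*, carbonic anhydrase 3, had 85 control UMIs and 1 LPS UMI, a ratio of 0.0113 (0.000283 to 0.0647), and 26 of the control UMIs lay in 1 cell. In cluster 0 its ratio was 0.0751. The immediate early gene *Fos* was at 57.5 and 7.24 CPM, a ratio of 0.126 (0.0605 to 0.237). *Bambi*, a decoy receptor that limits TGF-β signalling, was at 98.0 and 17.8 CPM, a ratio of 0.181 (0.115 to 0.275), against 0.216 in cluster 0. *Lrrc17* had a ratio of 0.142 (0.0939 to 0.207), against 0.162 in cluster 0.

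Matrix genes differed little between the libraries in sum. Of 18 compared, none was past 2-fold higher and 1, *Col1a2*, was lower, beside 4.56% higher and 3.37% lower over all genes, at 81.5 CPM in control and 34.2 CPM in LPS cells, a ratio of 0.420 (0.297 to 0.586) against 0.497 in cluster 0. Without the endothelial-marker-rich cells no matrix gene was higher and 2 were lower, beside 4.91% and 3.03% of all genes. *Col3a1*, the type III collagen chain, had a ratio of 0.813 (0.771 to 0.857), *Eln*, elastin, of 0.514 (0.384 to 0.682), and *Lox*, which cross-links both, of 1.76 (1.53 to 2.02) against 1.06 in cluster 0. The summed list was 0.974 times (0.957 to 0.990) as high in LPS as in control cells, and 0.916 times (0.914 to 0.918) in cluster 0. The cell cycle genes summed to 304 CPM in control and 203 CPM in LPS cells, a ratio of 0.668 (0.576 to 0.775), against 0.915 (0.895 to 0.935) in cluster 0. *Mki67*, a marker of dividing cells below the minimum for the comparison, had 36 and 9 UMIs, and of 6 cell cycle genes compared 1 was past 2-fold lower, *Mcm5* at 25.4 and 12.5 CPM, beside 3.37% of all genes. Without the endothelial-marker-rich cells 2 cell cycle genes were lower, beside 3.03% of all genes.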

How the data were processed

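Raw UMI counts per gene and cell, whole numbers without normalization, were deposited by the authors for both libraries with a table of cluster and cell type per barcode. Submitters' notes name Cell Ranger 2.2.0 and Seurat 2.3.4, and the study's methods name Seurat's RunCCA and FindClusters for the clusters. Genome build and annotation are not given in the sources used here. Counts were summed over the cells of a cluster and scaled to 1000000 with pandas 2.3.3, scipy 1.17.1 and numpy 2.4.6 under Python 3.11.15, and figures drawn with matplotlib. Log2 ratios used 0.5 UMI added to each sum. Intervals were exact Poisson, exact conditional and Clopper-Pearson, and 3 UMIs served as the upper limit where none was seen. No cell was filtered in the main values and no doublet caller was run; leaving out the 8% of cells with the most UMIs was an alternative. Thinning used seed 1.

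Named genes, as counted below, were all genes of the gene lists, the 10 highest and 10 lowest LPS ratios, and the 15 highest and 10 lowest ratios of cluster 7 to cluster 0 in each library. The 169 compared were those that met the minimum between the libraries. From the lists, the text gives mainly genes with the most UMIs. The cells and lists were chosen with earlier results of these data known. On simulated data for LPS against control in cluster 7 (4804 genes, 200 changed 4-fold), 100% of changed genes and 0.195% of unchanged genes came out past 2-fold, and 96.2% of intervals held the true ratio. The simulated sums were Poisson draws, as the intervals assume, without any spread between cells. They check the calculation only and cannot show how well the intervals or the 2-fold mark suit these data. The alternatives were filters on cells, other minimums, folds, scalings and depths of thinning. Leaving out 2 endothelial-marker-rich cells, *Ifitm1*, *Ifitm2* and *Ifitm3*, or *Sod2*, and a minimum met in either cluster, were chosen after seeing the data.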

Additional observations from a re-analysis of the deposited data

Results flagged for a closer look

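In 5 of the 169 named genes that were compared, the LPS ratio lay on opposite sides of 1 in clusters 7 and 0, with intervals for counting error that leave out 1 in both. Over all 4804 genes compared, 51 (1.06%) did so. The difference between the clusters was not tested, since each condition has 1 library. *Ccl5* had a ratio of 0.312 in cluster 7 and 1.48 in cluster 0, and *Dusp2* 0.0851 and 1.26, where 60 of the 79 control UMIs of *Dusp2* lay in 1 cell. *Ifi27l2b* had a ratio of 0.824 in cluster 7 and 1.17 in cluster 0. *Postn*, the matrix protein periostin, had 1.13 and 0.966, and *Tagln*, the actin-binding protein transgelin, 1.27 and 0.898.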

How the results depend on the processing

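No paired analysis was possible because control and LPS are represented by a single library, and no replicate could be left out. Of 169 named genes under 5 alternatives each, 771 log2 ratios stayed within the main interval and 74 moved past it. Among genes whose main interval left out 0, 0 ratios changed sign, and sign changes of the other genes were not counted. The alternative without cells over 10% mitochondrial UMIs left all 104 control and 144 LPS cells of cluster 7 in place, so its ratios could not move. Centring on the median ratio shifted every gene by the same small amount, the median log2 ratio of -0.02. Without cells holding 3 or more UMIs of other cell types' markers, only 5 control and 10 LPS cells of cluster 7 were left, so few that the values have little weight: 22 genes were past 2-fold higher with LPS and 9 lower, 1 was higher and 1 lower in cluster 7 than in cluster 0 in control and 4 higher in LPS, the NF-κB response list had a log2 ratio of 1.45 (1.13 with all cells), and the matrix list turned from -0.039 to 0.55. With at least 100 UMIs per gene, 133 genes were higher and 65 lower with LPS and 21 higher in cluster 7 in control. With at least 20 UMIs, 326 were higher and 465 lower with LPS, so that lower genes outnumbered higher ones, 90 higher and 1 lower in cluster 7 in control, and 130 higher in LPS. At 1.5-fold, 498 were higher and 558 lower with LPS, 80 higher and 4 lower in cluster 7 in control, and 112 higher and 1 lower in LPS. At 3-fold, 95 were higher and 39 lower with LPS and 22 higher in cluster 7 in control. With the minimum met in cluster 7 or in cluster 0, 1 gene was lower in cluster 7 in control. The count of higher genes in control was 21 at 2-fold without the 8% of cells with the most UMIs and 22 without the endothelial-marker-rich cells. The log2 ratio of the antiviral list, 0.77, became 0.86 without the 8% of cells with the most UMIs, 0.85 without the endothelial-marker-rich cells, 0.82 as the mean of the cells' own CPM, 0.45 over clusters 0, 1 and 7 together, 0.84 without the cell of each library with the most UMIs of the list and 1.45 without *Ifitm1*, *Ifitm2* and *Ifitm3*. That of the NF-κB response list became 2.77 without *Sod2*. That of the matrix list became -0.078 without the 8% of cells with the most UMIs, -0.066 without the endothelial-marker-rich cells and -0.13 over clusters 0, 1 and 7. Thinned to 1500 UMIs, 2.88% of control and 56.2% of LPS cells had at least 3 markers and the median UMIs of all interferon-stimulated genes listed were 19 and 32. At 3000 UMIs they were 14.4% and 82.6%, with medians of 38.5 and 61.5, and without thinning 38.5% and 97.2%, with medians of 170.5 and 203. Where the cause of a move is not plain from what was left out, it was not tested. Depth limits what can be seen in the 104 control cells, where a gene without a UMI may still be present at up to 2.06 CPM.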
